A study of Mus musculus with 8 samples.

Results

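Telomerase and shelterin genes were examined in 8 clones of mouse induced pluripotent stem (iPS) cells through every probe set annotated to exactly 1 of 9 symbols: Tert, Dkc1, Terf1, Terf2, Tinf2, Pot1a, Acd, Rif1 and Terf2ip. All 9 genes were on the array, with 25 of its 45037 probe sets that are not array controls and among 18193 genes with a probe set of their own. The clones came from embryonic fibroblasts of the Col-OKSM reprogrammable mouse, in which doxycycline turns on Oct4, Sox2, Klf4 and cMyc. In 4 clones the culture medium held ascorbic acid (vitamin C), and in the other 4 it did not. All were derived on irradiated fibroblast feeders, in embryonic stem cell medium that held serum, LIF and doxycycline, and were preplated to remove feeders before RNA extraction. The labels give neither the sex nor the strain background of the donor mice, and they leave unstated whether the clones trace back to different animals. The spread behind each p-value is therefore that between these 8 cultures, which may in part be technical. Doxycycline is listed for both groups, so the clones without ascorbic acid are no transgene-free control. The gene set was drawn up as genes raised on reprogramming, and since every array is of iPS cells, that rise was not examined here.

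Telomerase copies short repeats onto chromosome ends. Its catalytic protein is Tert, and dyskerin, the product of Dkc1, holds the RNA template in the particle. Shelterin covers the repeats and limits which enzymes reach them: Terf1 and Terf2 bind the double strand, Pot1a binds the single-stranded end, Tinf2 joins the duplex binders to Acd, Acd carries Pot1a, and Terf2ip rides on Terf2. Rif1 is named after a yeast telomere protein and in mammals acts mainly on replication timing and the repair of broken ends. Pluripotent cells keep telomerase active.

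RefSeq start-site windows (GRCm38.p6, 300 bases, from 250 before the start to 50 after it) were matched for 7 of the 9 genes and not for Terf1 and Rif1. Each was searched on both strands for the E-box CACGTG read by Myc, the GC box GGGCGG read by Sp and Klf factors, the cyclic AMP response element TGACGTCA and the telomere repeat TTAGGG. These motifs were chosen after the windows had been seen. The Tert window is shown because it holds GC boxes, and Klf4, one of the reprogramming factors, belongs to a family that reads them, and those of Tinf2 and Pot1a because they share a full response element. The windows lie at chr13:73626661-73626960 on the plus strand (Tert), chr14:55681768-55682067 on the minus strand (Tinf2) and chr6:25809169-25809468 on the minus strand (Pot1a). Capitals mark the GC boxes of Tert, which lie on the opposite strand with their first letters at positions -51 and -14 from the start, and the response elements of Tinf2 at -56 and Pot1a at -7.
Tert: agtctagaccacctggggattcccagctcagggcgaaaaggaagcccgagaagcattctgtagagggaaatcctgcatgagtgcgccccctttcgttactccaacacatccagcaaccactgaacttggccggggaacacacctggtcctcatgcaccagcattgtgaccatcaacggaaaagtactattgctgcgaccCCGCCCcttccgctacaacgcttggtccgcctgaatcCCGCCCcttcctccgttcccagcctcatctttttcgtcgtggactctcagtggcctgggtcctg
Tinf2: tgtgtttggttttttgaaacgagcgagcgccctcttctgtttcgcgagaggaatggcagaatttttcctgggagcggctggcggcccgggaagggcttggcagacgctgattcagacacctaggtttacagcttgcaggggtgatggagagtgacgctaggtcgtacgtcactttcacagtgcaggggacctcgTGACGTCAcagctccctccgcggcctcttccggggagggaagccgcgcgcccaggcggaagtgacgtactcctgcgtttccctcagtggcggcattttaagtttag
Pot1a: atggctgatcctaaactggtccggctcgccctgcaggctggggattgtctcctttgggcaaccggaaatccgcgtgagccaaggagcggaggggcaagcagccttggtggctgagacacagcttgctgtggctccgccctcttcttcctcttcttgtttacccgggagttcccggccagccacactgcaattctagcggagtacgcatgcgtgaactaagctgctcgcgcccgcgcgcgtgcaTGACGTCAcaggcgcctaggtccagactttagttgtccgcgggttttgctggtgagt
The GC box was present in 4 of the 7 genes (Pot1a, Terf2, Terf2ip and Tert), against 38.2% of the 27025 genes with a window. The full response element was present in 2 of the 7, against 2.03% of all genes. No E-box and no telomere repeat was found in the windows of the 7 genes, while 8.09% and 12.0% of all genes held one. No binding or methylation was measured on these windows, so the letters are shown as context for the genes and not as sites in use.

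No difference between clones derived with and without ascorbic acid passed the test in any of the 9 genes. In a limma fit over 13125 genes on log2(signal + 16), with the brightest probe set standing for a gene, 0 of 9 had an adjusted p under 0.05, against 0.0229% of all genes tested. At an unadjusted p under 0.05 the count was 0 of 9, against 5.83% of all genes. Values of the groups overlapped in all 9, whereas 3.63% of all genes had groups that did not overlap. The log2 differences, with minus without ascorbic acid, ran between -0.12 (Terf2) and 0.13 (Terf1), with 4 higher, 5 lower and a median of -0.0048. Over all genes the median was -0.0042, with 48.6% higher.

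**Figure D1:**
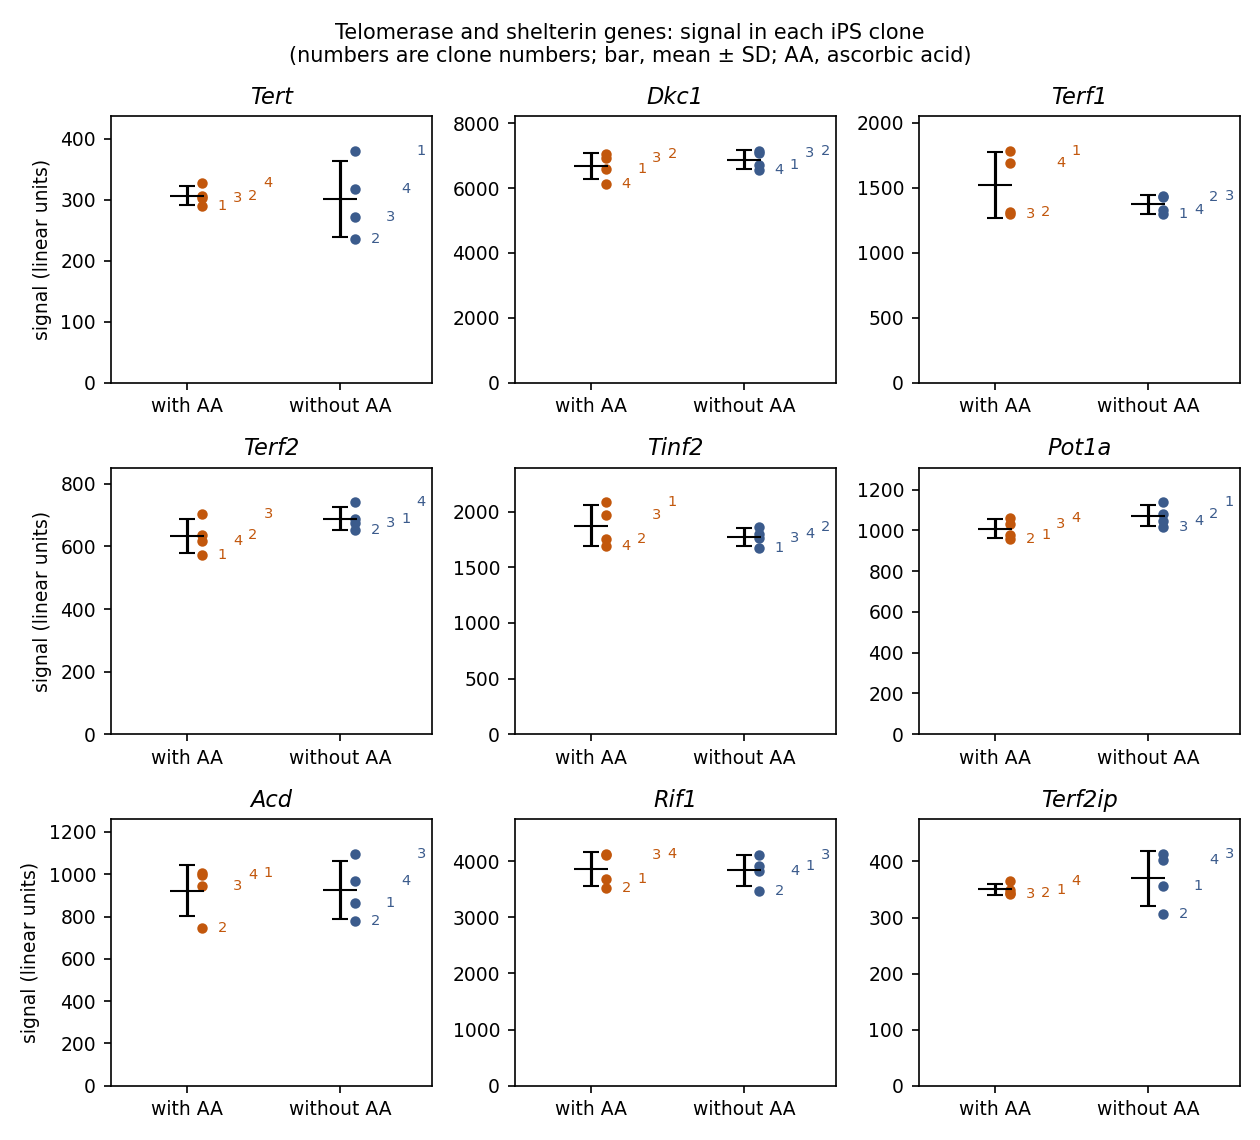
Signal (linear array units, axes from 0) of the brightest probe set of each of the 9 genes in the 4 clones with and the 4 clones without ascorbic acid. Points are clones with their numbers, and bars show mean ± SD. The groups overlap in every panel. The Tert clones without ascorbic acid run between 235 and 380 and those with it between 289 and 327.

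Tert, the catalytic subunit, gave a signal of 289, 306, 303 and 327 in the clones with ascorbic acid (numbers 1 to 4), against 380, 235, 271 and 317 in the clones without it. The 4 clones with ascorbic acid sat close together inside the range of the others, so the means of 306 ± 15.5 with and 301 ± 62.3 without were nearly equal (SD over 4 clones a group). The log2 difference was 0.04 ± 0.14 (SE; limma, adjusted p = 0.975), with a 95% interval from -0.26 to 0.35. The SD of the log2 values on this brightest probe set was 0.069 with and 0.28 without ascorbic acid, and a difference in spread was not tested. On its other probe set, 1456941_at, Tert read 168, 180, 280 and 185 with ascorbic acid, against 216, 164, 118 and 203 without. The clones with ascorbic acid were not close together there, with an SD of the signals of 51.4 with and 44.1 without. That set again overlapped between groups, with clone 3 highest among those with ascorbic acid and clone 3 lowest among those without, and its log2 difference was 0.20 ± 0.21 (SE; limma over probe sets, adjusted p = 0.923).

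Dkc1, which encodes dyskerin and lies on chromosome X, had signals of 6598, 7045, 6924 and 6134 with ascorbic acid, against 6721, 7138, 7091 and 6543 without. Clone 4 was the lowest of each group, and the highest clone stood only 1.16-fold above the lowest. The log2 difference was -0.04 ± 0.062 (SE; limma, adjusted p = 0.942). Its interval, -0.18 to 0.092, was the narrowest of the 9. The other Dkc1 probe sets had log2 differences of -0.08 and 0.02, so all 3 lay within 0.1 of no change.

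The duplex binders Terf1 and Terf2 had differences of opposite sign. Terf1 restrains telomere lengthening and is abundant in mouse pluripotent cells. Its brightest probe set read 1781, 1313, 1295 and 1691 with ascorbic acid, against 1294, 1429, 1437 and 1328 without. Clones 1 and 4 with ascorbic acid were above all others, while clones 2 and 3 lay within the range of the clones without it. The means were 1520 ± 252 with and 1372 ± 71.7 without (SD over 4 clones a group), a log2 difference of 0.13 ± 0.10 (SE; limma, adjusted p = 0.882). The second Terf1 probe set, 1431332_a_at, read 578, 492, 570 and 620 with ascorbic acid, against 559, 622, 614 and 613 without. It did not set clones 1 and 4 apart in the same way, and its log2 difference had the other sign, -0.09 ± 0.088 (SE; limma over probe sets, adjusted p = 0.920). The mean over both Terf1 probe sets gave a log2 difference of 0.021. On the brightest set the difference was 0.053 without clone 1 and 0.078 without clone 4 of the group with ascorbic acid, and 0.20 without clone 2 or clone 3 of that group.

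Terf2, which folds and protects the chromosome end, gave 571, 636, 704 and 618 with ascorbic acid, against 687, 653, 675 and 740 without. Of the clones with ascorbic acid 3 were below all those without, and clone 3 was second highest of the 8. The log2 difference was -0.12 ± 0.083 (SE; limma, adjusted p = 0.858; exact two-sided permutation p = 0.143). All 3 Terf2 probe sets had a negative difference, at -0.12, -0.05 and -0.22. The last, 1459650_at, was dim and scattered in the clones without ascorbic acid, at 239, 67.4, 199 and 87.0, against 101, 96.2, 107 and 141 with it.

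Among the bridging subunits, Tinf2 was the only member with a probe set whose groups did not overlap. Its brightest probe set, 1451163_at, read 2083, 1752, 1974 and 1693 with ascorbic acid, against 1674, 1860, 1764 and 1796 without. The highest 2 of the 8 values were from clones 1 and 3 with ascorbic acid, and the rest overlapped. The log2 difference was 0.08 ± 0.073 (SE; limma, adjusted p = 0.908). The dimmer probe set, 1437166_at, read 228, 269, 242 and 256 with ascorbic acid, against 220, 208, 182 and 196 without. Every clone with ascorbic acid was above every clone without on this set, with a log2 difference of 0.29 ± 0.12 (SE). It was not called over all probe sets (limma, adjusted p = 0.878). The exact two-sided permutation p, unadjusted, was 0.0286, the smallest that 4 clones against 4 allow. Any set without overlap has this value, so it adds nothing to the lack of overlap. On the brightest Tinf2 set the exact two-sided permutation p was 0.371. With both sets averaged, the log2 difference of Tinf2 was 0.18 ± 0.060 (SE; limma, unadjusted p = 0.0111, adjusted p = 0.751).

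Acd, the partner that carries Pot1a and draws telomerase to the chromosome end, read 1004, 746, 943 and 997 with ascorbic acid, against 862, 780, 1096 and 969 without. Clone 2 was the lowest of each group, and the means of 923 ± 121 with and 927 ± 137 without differed by far less than the spread (SD over 4 clones a group; adjusted p = 0.995 in limma). Only 1 probe set was annotated to Acd. Pot1a, the single-strand binder, read 979, 959, 1033 and 1060 with ascorbic acid, against 1136, 1082, 1018 and 1047 without. The highest 2 clones were without and the lowest 2 with ascorbic acid, at a log2 difference of -0.09 ± 0.065 (SE; limma, adjusted p = 0.881). Its other 3 probe sets were below the dim limit used here, a signal of about 93.7, and in the fit of all probe sets without that limit their log2 differences were 0.26, 0.08 and 0.17, opposite in sign to the bright one.

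Terf2ip is the mouse counterpart of yeast Rap1. Its brightest probe set read 349, 344, 343 and 365 with ascorbic acid, against 356, 307, 414 and 403 without. As with the brightest Tert set, the clones with ascorbic acid were tightly grouped within the range of the others. The log2 difference was -0.07 ± 0.11 (SE; limma, adjusted p = 0.954), and the SD of log2 values was 0.040 with and 0.19 without. That SD was instead larger with ascorbic acid for Dkc1, Terf1, Terf2, Tinf2 and Rif1. For Terf1 it was 0.24 with and 0.075 without, and for Tinf2 0.14 with and 0.063 without. These SDs are those of the brightest probe sets. On the Terf2ip sets below the dim limit, the SD of the signals was larger with ascorbic acid. It was 20.4 with and 14.0 without on 1419381_at, and 31.9 with and 24.2 without on 1456400_at. In the fit without that limit, their log2 differences were 0.23 and -0.09, the first opposite in sign to the brightest set. A difference in spread was not tested for any gene. Rif1 read 3687, 3527, 4104 and 4128 with ascorbic acid, against 3916, 3472, 4116 and 3828 without, on a probe set of the _s_at class, which can read several transcripts. The 2 lowest values were clone 2 of each group, and the log2 difference was 0.01 ± 0.071 (SE; limma, adjusted p = 0.988). All 4 Rif1 probe sets had a positive difference, between 0.01 and 0.31. The highest came from 1429490_at, at 2346, 1493, 1704 and 2105 with ascorbic acid, against 1332, 2031, 1301 and 1493 without. Clone 2 without ascorbic acid lay among the high clones there, and the groups overlapped (log2 difference 0.31 ± 0.16, SE; limma over probe sets, adjusted p = 0.882).

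**Figure D2:**
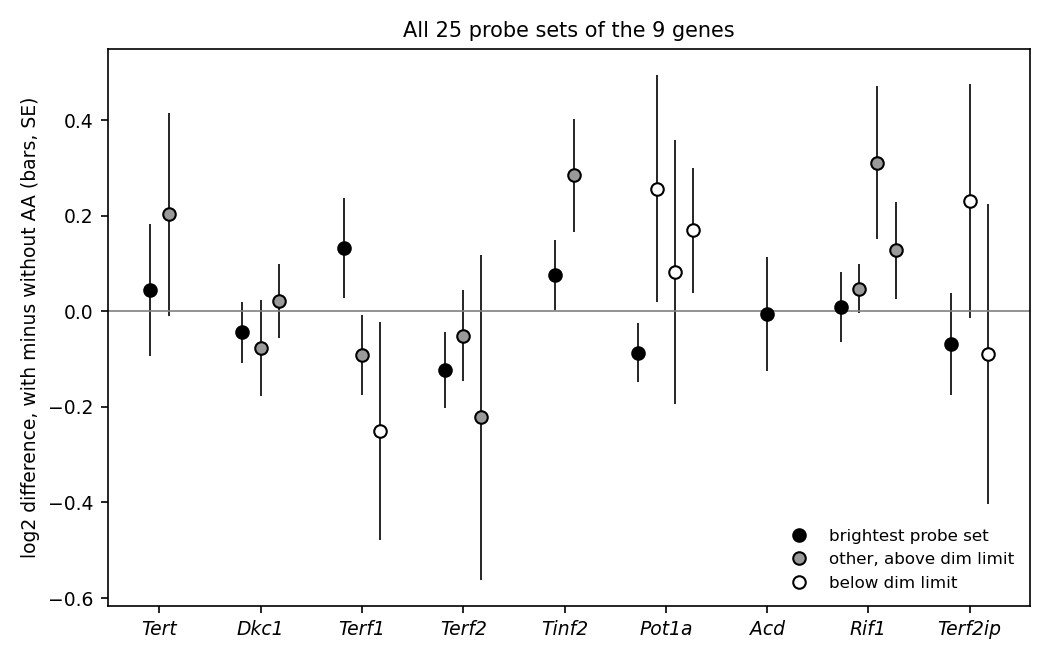
Log2 difference of signal, with minus without ascorbic acid (AA), for all 25 probe sets of the 9 genes, with bars of ± 1 SE from the fit without a dim limit. Black marks the brightest probe set of a gene, grey another above the dim limit and white one below it. Probe sets of Dkc1, Terf1, Pot1a and Terf2ip lie on both sides of 0, and those of Tert, Terf2, Tinf2 and Rif1 on 1 side.

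Read by probe set, 19 of the 25 were above the dim limit, 10 of them higher and 9 lower with ascorbic acid. Of these 19, 0 had an adjusted p under 0.05 in the limma fit over 27022 probe sets, against 0.0481% of all. The Tinf2 set 1437166_at was the 1 set with an unadjusted p under 0.05, where 5.55% of all probe sets had one, and the 1 set without overlap, where 3.4% of all had none. A share of 1 in 19 is near both backgrounds. Of the 6 dim sets, 0 passed in the fit of all 45037 probe sets at an adjusted p under 0.05 (0.0244% of all) or at an unadjusted one (5.37% of all). Each gene had at least 1 probe set above the limit, so all 9 entered the fit by gene.

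The fit also set limits on the size of the differences. On the brightest probe sets, the 95% intervals of the 9 genes all lay within a 1.5-fold change in either direction, as did those of 85.1% of all genes tested. Their widest ends were 1.28-fold higher (Terf1) and 0.806-fold (Terf2ip) on the log2(signal + 16) scale. Of the 19 probe sets above the dim limit, 3 had an interval that went beyond 1.5-fold. These were 1456941_at of Tert (-0.25 to 0.65 log2), 1459650_at of Terf2 (-0.93 to 0.49) and 1429490_at of Rif1 (-0.028 to 0.65). The intervals are for single genes or probe sets, without adjustment for their number. Telomerase activity, telomere length and shelterin protein were not measured.

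**Figure D3:**
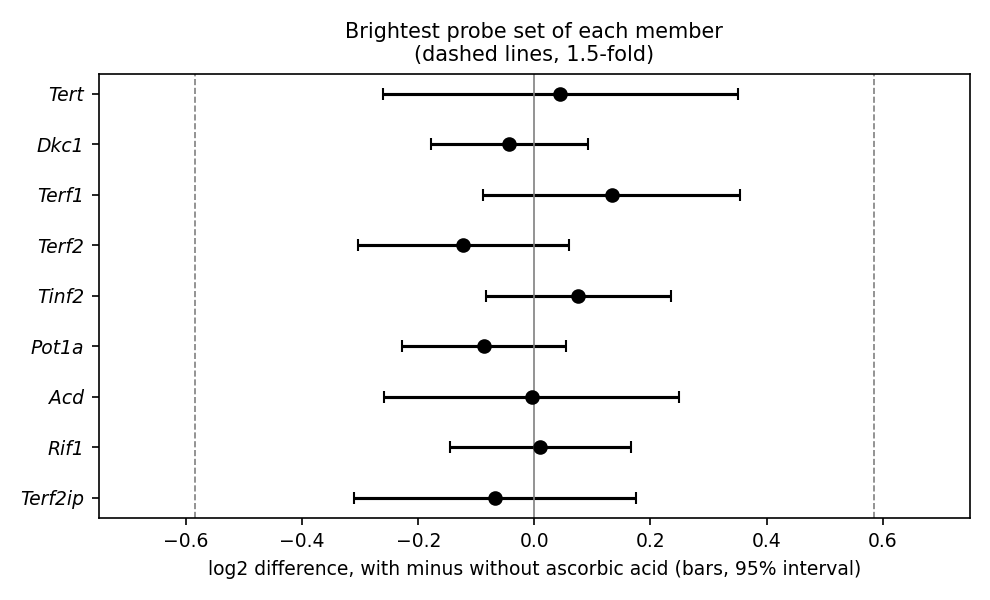
Log2 difference, with minus without ascorbic acid, for the brightest probe set of each gene, with 95% intervals from the limma fit. Dashed lines mark a 1.5-fold change. Every interval crosses 0 and ends inside the dashed lines.

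Read on their brightest probe sets, the 9 genes differed in how far single clones strayed from the gene's own mean. Tert had the largest spread over the 8 clones (SD of 0.19 log2 units) and Dkc1 the smallest (0.074). Tert was also the dimmest of the 9, at a mean signal of 306 with and 301 without ascorbic acid. Dkc1 was the brightest, at 6675 with and 6873 without. The part of signal level in these spreads was not tested. Within groups, 68.6% of all tested genes had a smaller SD than Tert, 68.1% a smaller one than Acd and 7.44% a smaller one than Pot1a. No single clone stood at the top of most genes. Clone 2 without ascorbic acid was lowest for 3 genes (Tert, Rif1 and Terf2ip), and clones 1 with, 1 without and 3 without ascorbic acid were each highest for 2. The median deviation of a clone over the 9 genes lay between -0.058 (clone 2 with ascorbic acid) and 0.034 (clone 3 without).

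**Figure D4:**
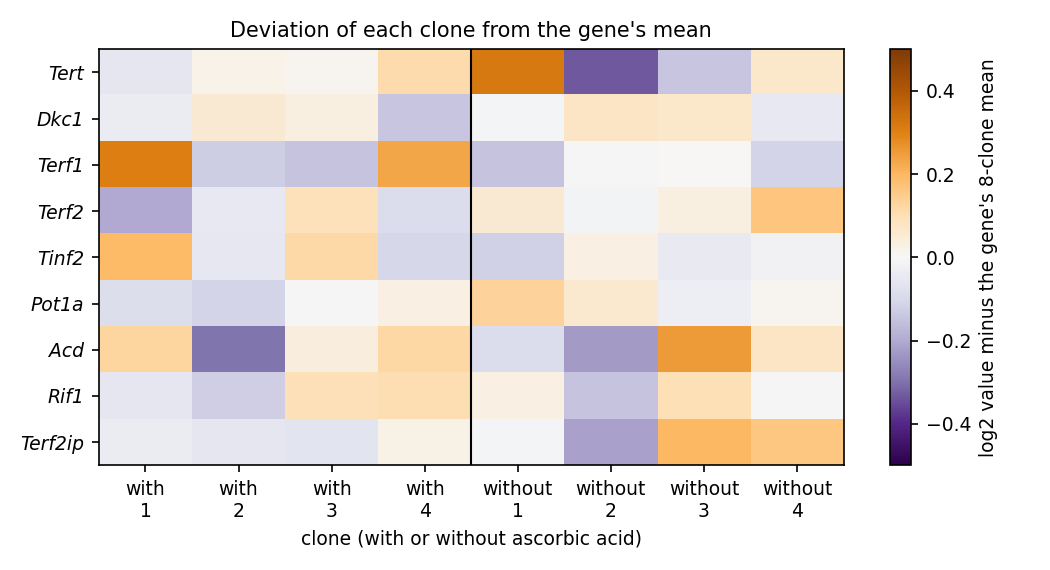
Log2 value of each gene (rows, brightest probe set) in each clone (columns, with ascorbic acid on the left of the line, without on the right), minus the gene's mean over 8 clones. The strongest colours are Terf1 in clone 1 with ascorbic acid and Tert in clones 1 and 2 without.

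Across the 8 clones, the genes with the profile nearest to that of Tert, on its brightest probe set, were Naxe, Fbxl18 and Unk. Nearness was the root mean square difference of log2 values centred per gene, which was 0.064 for Naxe, 0.074 for Fbxl18 and 0.077 for Unk. They are the nearest of 13125 genes over only 8 clones. The genes were picked for nearness over these same clones, so their likeness to Tert follows from that choice. Like the brightest Tert set, each was highest in clone 1 and lowest in clone 2 among the clones without ascorbic acid. Naxe read 2293 and 1632 in those 2 clones, Fbxl18 325 and 214, and Unk 858 and 588. On the other Tert set, 1456941_at, clone 1 was again the highest of that group, at 216. The lowest there was clone 3, at 118, with clone 2 at 164.

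Genes that work with telomerase and shelterin likewise gave no called difference. Over 4 further lists, 66 of 68 genes with a probe set were tested, and 36 were higher and 30 lower with ascorbic acid, with a median log2 difference of 0.016. Of the 66, 0 had an adjusted p under 0.05 in limma, beside 0.0229% of all genes, a share too small for a call to be likely among 66. An unadjusted p under 0.05 was found for 6, or 9.09%, beside 5.83% of all genes. The groups did not overlap in 3 of the 66, or 4.55%, beside 3.63% of all genes. In the list of telomerase assembly and trafficking, 9 of 15 genes were higher and 6 lower (median 0.037). Nvl, a nucleolar ATPase, read 1574 ± 105 with and 1414 ± 59.2 without (SD over 4 clones a group; adjusted p = 0.826 in limma). Shq1, the chaperone of dyskerin, had a log2 difference of 0.25 ± 0.14 (SE), and Nhp2, a partner of dyskerin in the particle, one of -0.09 ± 0.062. Among other shelterin and end-processing genes, 8 of 15 were higher and 7 lower (median 0.016). Rlim, a ubiquitin ligase shown in human cells to target the Terf1 counterpart, read 2890 ± 196 with and 2468 ± 125 without, with no overlap between groups (SD over 4 clones a group; adjusted p = 0.749 in limma). Tnks1bp1, whose human counterpart binds tankyrase, had a log2 difference of -0.18 ± 0.097 (SE), and Rtel1, the helicase that unwinds telomere loops, one of 0.15 ± 0.082. Pot1b, the second mouse Pot1 gene, was below the dim limit.

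Among genes of damage response and recombination at telomeres, 9 of 19 were higher and 10 lower (median -0.0021). Trp53bp1, which protects broken ends from resection, read 1673 ± 110 with and 1467 ± 48.4 without (SD over 4 clones a group; adjusted p = 0.757 in limma). Prkdc, the DNA-dependent protein kinase, had a log2 difference of 0.12 ± 0.076 (SE), and Rad54l, a recombination factor, one of -0.15 ± 0.11. In the list of telomeric chromatin and lengthening in stem cells, 10 of 17 were higher and 7 lower (median 0.032). Of these 17, 3 (17.6%) had an unadjusted p under 0.05, against 5.83% of all genes, and 2 (11.8%) had groups without overlap, against 3.63%. Tbx3, a pluripotency factor, read 1345 ± 93.9 with and 1639 ± 107 without, with no overlap between groups (SD over 4 clones a group; adjusted p = 0.616 in limma). Tfcp2l1, another, had a log2 difference of -0.35 ± 0.11 (SE). Nr2c2, an orphan nuclear receptor, read 1852 ± 71.8 with and 1633 ± 129 without, again with no overlap (SD over 4 clones a group; adjusted p = 0.767 in limma). Terc, the telomerase RNA, and the Zscan4 genes, which mark telomere lengthening in embryonic stem cells, were not analysed here.

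**Figure D5:**
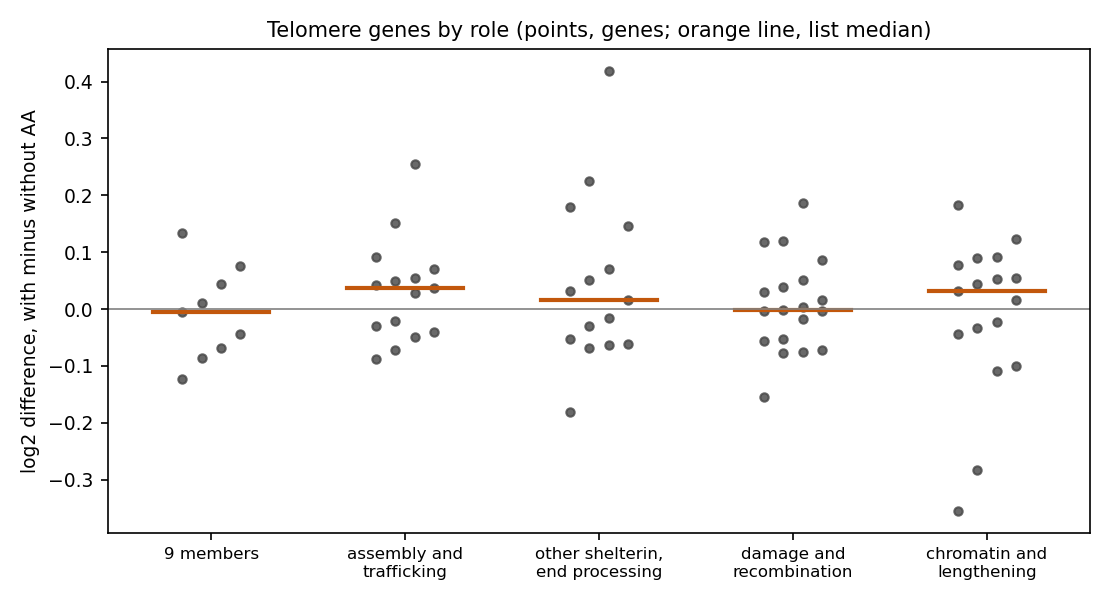
Log2 difference, with minus without ascorbic acid (AA), for the 9 genes and the 4 further lists (15, 15, 19 and 17 genes). Points are genes and orange lines list medians. All medians lie between -0.0048 and 0.037.

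The arrays had median signals of 134 to 156. The label of iPS cells was checked on pluripotency markers, which were bright in both groups. Pou5f1 (Oct4) averaged 10295 ± 948 with and 11283 ± 292 without ascorbic acid, Nanog 8948 ± 891 with and 9709 ± 294 without, and Sox2 14333 ± 529 with and 15002 ± 335 without (SD over 4 clones a group). Of 10 such markers, 1 was higher and 9 lower with ascorbic acid, and 0 were called, beside 0.0229% of all genes. Oct4 and Sox2 are also among the factors that doxycycline turns on, and the part of transgene RNA in their signals was not tested. Fibroblast markers, which feeder cells would carry, were lower with ascorbic acid in 13 of 16 tested genes (median log2 difference -0.18). Here too 0 were called, beside 0.0229% of all genes. An unadjusted p under 0.05 was found for 6 of the 16, or 37.5%, against 5.83% of all genes. Of these 6, 5 were lower, and Twist1, a transcription factor, was higher, at 201 ± 26.7 with and 135 ± 21.1 without (SD over 4 clones a group; log2 difference 0.52 ± 0.16, SE; adjusted p = 0.749 in limma). Postn, among the 5 lower, read 317 ± 33.9 with and 416 ± 22.8 without (SD over 4 clones a group; log2 difference -0.38 ± 0.11, SE; adjusted p = 0.749 in limma). It was the 1 marker of the 16 whose groups did not overlap (6.25%, against 3.63% of all genes). The summed signal of the 16 markers was 30409 to 38118 with and 35776 to 39173 without. The brightest markers were Fn1, at 11842 ± 1381 with and 13281 ± 892 without, and Acta2, at 6101 ± 391 with and 6414 ± 716 without. Next came Col1a2, at 3744 ± 707 with and 4583 ± 463 without, and Col1a1, at 2628 ± 660 with and 3216 ± 241 without. None of the markers was listed at 0, and Twist2, Lum and Dcn were below the dim limit. In such bulk RNA, fewer cells with a transcript and less of it per cell cannot be told apart, and the part of feeder RNA in the values of the 9 genes was not tested.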

How the data were processed

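Expression was measured on Affymetrix mouse 430_2 arrays, 1 for each of 8 iPS clones. The authors deposited 1 linear intensity value for each probe set and array. Per the submitters' processing notes these were made with GCOS, the Affymetrix operating software. Which release and algorithm was run is not given in the sources used here. From the numbers themselves, it was found that each array was scaled to a mean of 500 after trimming 2% at each end. Groups and clone numbers came from the labels.

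Of 45101 probe sets, 64 controls were left out, 34945 had 1 gene symbol, 932 several and 9160 none. Symbols came from the platform annotation, with Entrez identifiers matched to RefSeq (GRCm38.p6) for 99.4% of single-symbol probe sets, and 0 were renamed. Signals were transformed as log2(signal + 16), which understates changes of dim genes, and the dimmest 40% of probe sets were left out. Differences are with minus without ascorbic acid, tested with limma 3.58.1 (lmFit, eBayes with trend) in R 4.3.3, as two-sided p-values adjusted by Benjamini-Hochberg over all genes or probe sets tested and a threshold of 0.05. Single values were also tested by exact permutation over 70 assignments. The number of arrays limits the precision. The scripts were tested on simulated data. Figures were drawn with matplotlib 3.10.9.

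The members and lists were chosen with earlier results of these data known. The text names all 9 members, the 3 genes with the smallest p of each further list, Pou5f1, Nanog, Sox2, the 4 brightest fibroblast markers and the 3 genes nearest in profile to the most variable member. Pot1b, Terc, the Zscan4 genes, Twist2, Lum and Dcn are named only as not tested. Twist1 and Postn are named outside this rule and were chosen after their values were seen.

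The alternatives were 2 other scalings (quantile, median centring), pseudocounts of 1 and 64, dim filters of 0% and 60%, averaging the probe sets of each gene, leaving out _s_at and _x_at probe sets, eBayes without trend or robust, array weights, a replicate block, and leaving out each clone.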

Additional observations from a re-analysis of the deposited data

Results flagged for a closer look

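A clone was taken as far apart when its gap to the nearest other clone of its group, divided by the range of the group, was above Dixon's 95% critical value for 4 samples. That was so in 5 of 96 groups (5.21%). The critical value is set so that about 5% of groups pass by chance, a rate not tested on these arrays. On the dimmer Tert probe set, 1456941_at, clone 3 with ascorbic acid had a signal of 280, against 168 to 185 in the other clones of its group. On the second Terf1 probe set, 1431332_a_at, clone 1 without ascorbic acid read 559, against 613 to 622 in the others. On the dim Terf2ip probe set 1456400_at, clone 4 with ascorbic acid read 112, against 43.6 to 53.2. Fbxl18, one of the genes nearest in profile to Tert, had a signal of 310 for clone 4 with ascorbic acid and 269 to 275 for the rest of that group. The fibroblast gene Twist1 stood at 161 in clone 2 with ascorbic acid and at 212 to 217 in the other clones of that group.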

How the results depend on the processing

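Under 20 alternatives, the 9 genes gave 180 values, of which 0 were called (lowest adjusted p 0.748) and 9 changed sign, with log2 differences from -0.17 to 0.20. The sign changes were in 3 genes with differences near 0. Acd was at 0.029 under median centring and between -0.082 and 0.092 with 1 clone left out. Rif1 was at -0.0065 with array weights and between -0.036 and 0.052 with 1 clone left out. Tert ranged from -0.060, when clone 2 derived without ascorbic acid was left out, to 0.16 when clone 1 of that group was. The count of all genes called was 3. It was 1 in eBayes without trend and 1 with robust estimation, and from 2 to 4 under the other alternatives. With the clone number as a replicate block, 0 of the 9 genes and 3 of all genes were called. Same-numbered clones had deviations correlated at -0.17 to 0.012. With 4 clones a group, that cannot show whether same-numbered clones share more than a number, and the labels do not say.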
